A study of Homo sapiens with 12 samples.

Results

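The translation initiation and elongation factors of human 293T cells were followed on whole-transcriptome arrays after transfection with a hairpin vector, a tRNA vector or an empty vector. The family was taken from the array annotation as every probe set with a single gene symbol that begins with EIF or EEF and a digit, together with PABPC1, PABPC4, TPT1, ETF1, GSPT1 and GSPT2. EIF2AK kinases, EEF1E1 and pseudogenes were left out. This gave 157 of 54613 probe sets, which name 61 of the 19775 genes that have a probe set of their own. Of these, 146 probe sets were bright enough to be tested, and they stand for 59 genes of the 13952 genes tested. Among the 59 are EIF1B-AS1 and EIF3J-DT, an antisense and a divergent transcript that share the symbols' first letters. The tested members passed a filter on the mean over all 12 arrays, which does not look at the groups.

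293T is a transformed human embryonic kidney line that expresses the SV40 large T antigen. The hairpin vector carried an artificial hairpin for the small RNA CU1276. The tRNA vector carried the glycine tRNA gene chr1.tRNA68-Gly(GCC), whose transcript is said by the labels to be cut to CU1276. The empty vector held no insert, and every group was transfected with the same reagent, polyethylenimine. RNA was collected 48 hours later. Each group had 4 arrays, labelled as biological replicates, and nothing says how separately the cultures were grown, so the tests below measure the spread between these arrays. The cells were transfected transiently and unsorted, so a level averages cells that took up the vector and cells that did not, and fewer such cells and less RNA per cell cannot be told apart.

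Translation begins when eIF2 brings the initiator tRNA to the small ribosomal subunit, which eIF3, eIF1 and eIF1A hold ready for scanning. The mRNA joins through eIF4E, which binds its cap, eIF4G, which bridges the parts, and the helicase eIF4A with its helper eIF4B, while PABPC1 holds the poly(A) tail. eIF5 and eIF5B then allow the subunits to join, eIF2B recharges eIF2 with GTP, and the 4E-binding proteins take eIF4E away when the mTOR kinase is idle. During elongation eEF1A delivers each aminoacyl-tRNA, the eEF1B complex recharges it, eEF2 moves the ribosome on, and eIF5A relieves stalls. ETF1 and GSPT1 release the finished protein at a stop codon.

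Many of these factors belong to the mRNAs with a terminal oligopyrimidine tract, called TOP mRNAs. They start with a C followed by a run of C and T, and their translation follows mTOR. The starts of 5 such genes are shown to make this group visible, with 3 of the initiation factor genes whose starts lack the tract. Each line gives 10 bases before and 20 bases from the annotated transcription start in RefSeq, build GRCh38.p14, 5′ to 3′ on the gene's strand, with the pyrimidine run in capitals.
EEF1A1, chr6:73521013-73521042, minus strand: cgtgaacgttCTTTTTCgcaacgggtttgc
EEF2, chr19:3985444-3985473, minus strand: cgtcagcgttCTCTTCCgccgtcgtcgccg
TPT1, chr13:45341164-45341193, minus strand: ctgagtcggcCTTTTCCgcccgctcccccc
EIF4B, chr12:53006446-53006475, plus strand: tcatccgggtCTTTTgcgttctctttccct
EIF3F, chr11:7987327-7987356, plus strand: cttccgcctcCTTCTTTCTCgacaagatgg
EIF4E, chr4:98929114-98929143, minus strand: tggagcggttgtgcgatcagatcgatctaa
EIF2S1, chr14:67360318-67360347, plus strand: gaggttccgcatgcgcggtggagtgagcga
EIF3I, chr1:32222397-32222426, plus strand: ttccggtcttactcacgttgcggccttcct
A C exactly at an annotated start, followed by at least 4 letters that are each C or T, was sought on the gene's strand. A gene with several annotated starts counted if any of them matched. This held for 11 of the 44 tested family genes with a promoter sequence (25%). The share among all protein-coding genes with a promoter sequence was 988 of 15843 (6.24%). Of 7 family genes known as TOP mRNAs, 6 matched. A match describes these letters and does not make them a site.

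The array did not give every factor a value of its own. EIF4A1, EEF1B2, EEF1G, EIF3CL, EIF4EBP3 and PABPC4 occur only in probe sets that carry several symbols, of which 15 hold a family gene. EIF4G3, EIF4E1B, EIF2S3B, EIF5AL1, EEF1AKMT4 and EEF1AKNMT have none in the annotation used here. EIF4A2 and EIF1AY had probe sets of their own, but these were too dim to be tested. The helicase eIF4A and the exchange complex eEF1B are therefore described here only through their partners.

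The arrays resembled each other closely, with correlations of 0.925 to 0.959 between pairs over the tested probe sets, and no pair held identical values. Of the 293T markers, 7 of 8 on the array were bright enough to be tested, among them VIM and NEFM, and LHX1 was not. Their summed signals were 29840 to 33950 with the hairpin vector, 32150 to 36190 with the tRNA vector and 28630 to 32690 with the empty vector. Of 12 markers of blood cells and fibroblasts on the array, 6 passed the filter, with summed signals of 1281 to 1818 with the hairpin, 1185 to 1619 with the tRNA and 1267 to 2032 with the empty vector. PTPRC, MS4A1, CD3E, CD14, LYZ and ALAS2 were below it, and CD79A, ITGAM, COL1A1, COL3A1, DCN and HBB were above it. COL1A1 was the brightest of these, with means of 837.9, 769.8 and 838.3 with the hairpin, tRNA and empty vector. That is above the 293T markers KRT8, PAX2 and EYA1. The signal of the 27 Bacillus control RNA probe sets was 1726 to 1834 on the 3 arrays numbered 1, 331.4 to 388.7 on those numbered 2, and 20.01 to 26.13 on those numbered 3 and 4. That level followed the replicate number and was alike in the 3 groups.

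No translation factor differed between vectors at an adjusted p under 0.05 in any of the 3 comparisons, by limma with Benjamini-Hochberg adjustment over all 32768 tested probe sets. None of the 13952 genes did so either (0%), and the smallest adjusted p among the members was 0.9997, for the hairpin vector against the tRNA vector. With the replicate number as a block in the model, 6 probe sets (0.0183%) and 4 genes (0.0287%) passed for hairpin against tRNA vector and 0 of either for hairpin against empty vector, and none of them was a translation factor. The smallest adjusted p of a factor in these blocked fits was 0.3063 for hairpin against tRNA vector and 0.8524 for hairpin against empty vector. The members' differences were small. With the hairpin vector against the tRNA vector 57 of the 59 lay within 0.25 on the log2 scale, and 55 did so in each of the other two comparisons. Their standard errors ran from 0.058 to 0.71 with a median of 0.11, against 0.16 over all genes.

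The tRNA vector against the empty vector gave a higher mean for 39 of 59 factors, 66.1% of them, where 50.7% of all genes were higher. The median log2 difference was 0.05, against 0.003 over all genes. After quantile normalization 31 factors were higher and the median was 0.00702. The mean of a gene's probe sets gave 0.0314, and the median was 0.0232 without tRNA vector replicate 2 and 0.0285 without empty vector replicate 4. At an unadjusted p under 0.05, 2 factors were higher (1.85% of all genes) and 0 were lower (2.41% of all genes). In 2 factors all 4 arrays of the tRNA vector lay above all 4 of the empty vector (1.25% of all genes), and in 1 they lay below (1.69% of all genes). The higher ones were EIF3I and EIF4EBP1, and the lower one was EIF2B4.

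The hairpin vector against the empty vector gave a lower mean for 36 of 59 factors, 61.0%, where 48.8% of all genes were lower. The median log2 difference was -0.03, against 0.00417 over all genes. It was -0.0153 without empty vector replicate 1 and -0.0198 without hairpin vector replicate 4, and -0.0504, -0.0466 and -0.0467 without empty vector replicate 4, empty vector replicate 3 or hairpin vector replicate 1. At an unadjusted p under 0.05, 1 factor was lower (1.25% of all genes) and 0 were higher (1.49% of all genes). With the replicate block 7 were lower (2.58% of all genes), namely EEF2, EIF1AX, EIF2B2, EIF2B4, EIF3A, EIF3L and EIF5, and EEF1A2 alone was higher (3.27% of all genes). In 1 factor, EIF3A, the 4 hairpin arrays lay below all empty arrays (1.22% of all genes), and in 0 they lay above (1.11% of all genes).

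The hairpin vector against the tRNA vector gave a lower mean for 47 of 59 factors, 79.7%, where 49.4% of all genes were lower. The median log2 difference was -0.07, against 0.00284 over all genes, and after quantile normalization it was -0.0304. The count of factors with a higher mean was 12, and 22 after quantile normalization or with the mean of a gene's probe sets. At an unadjusted p under 0.05, 3 factors were lower (1.92% of all genes) and 0 were higher (2.64% of all genes). The replicate block gave 5 lower (4.41% of all genes), namely EIF2S1, EIF3B, EIF3I, EIF3L and EIF5, and 0 higher (4.96% of all genes). In 4 factors, EIF3L, EIF3I, EIF3B and EEF2K, the hairpin arrays lay below all tRNA arrays (1.58% of all genes), and in 0 above (1.66% of all genes). The 3 comparisons share arrays in pairs, so a gene low with the hairpin vector or high with the tRNA vector enters 2 of them.

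**Figure D1:**
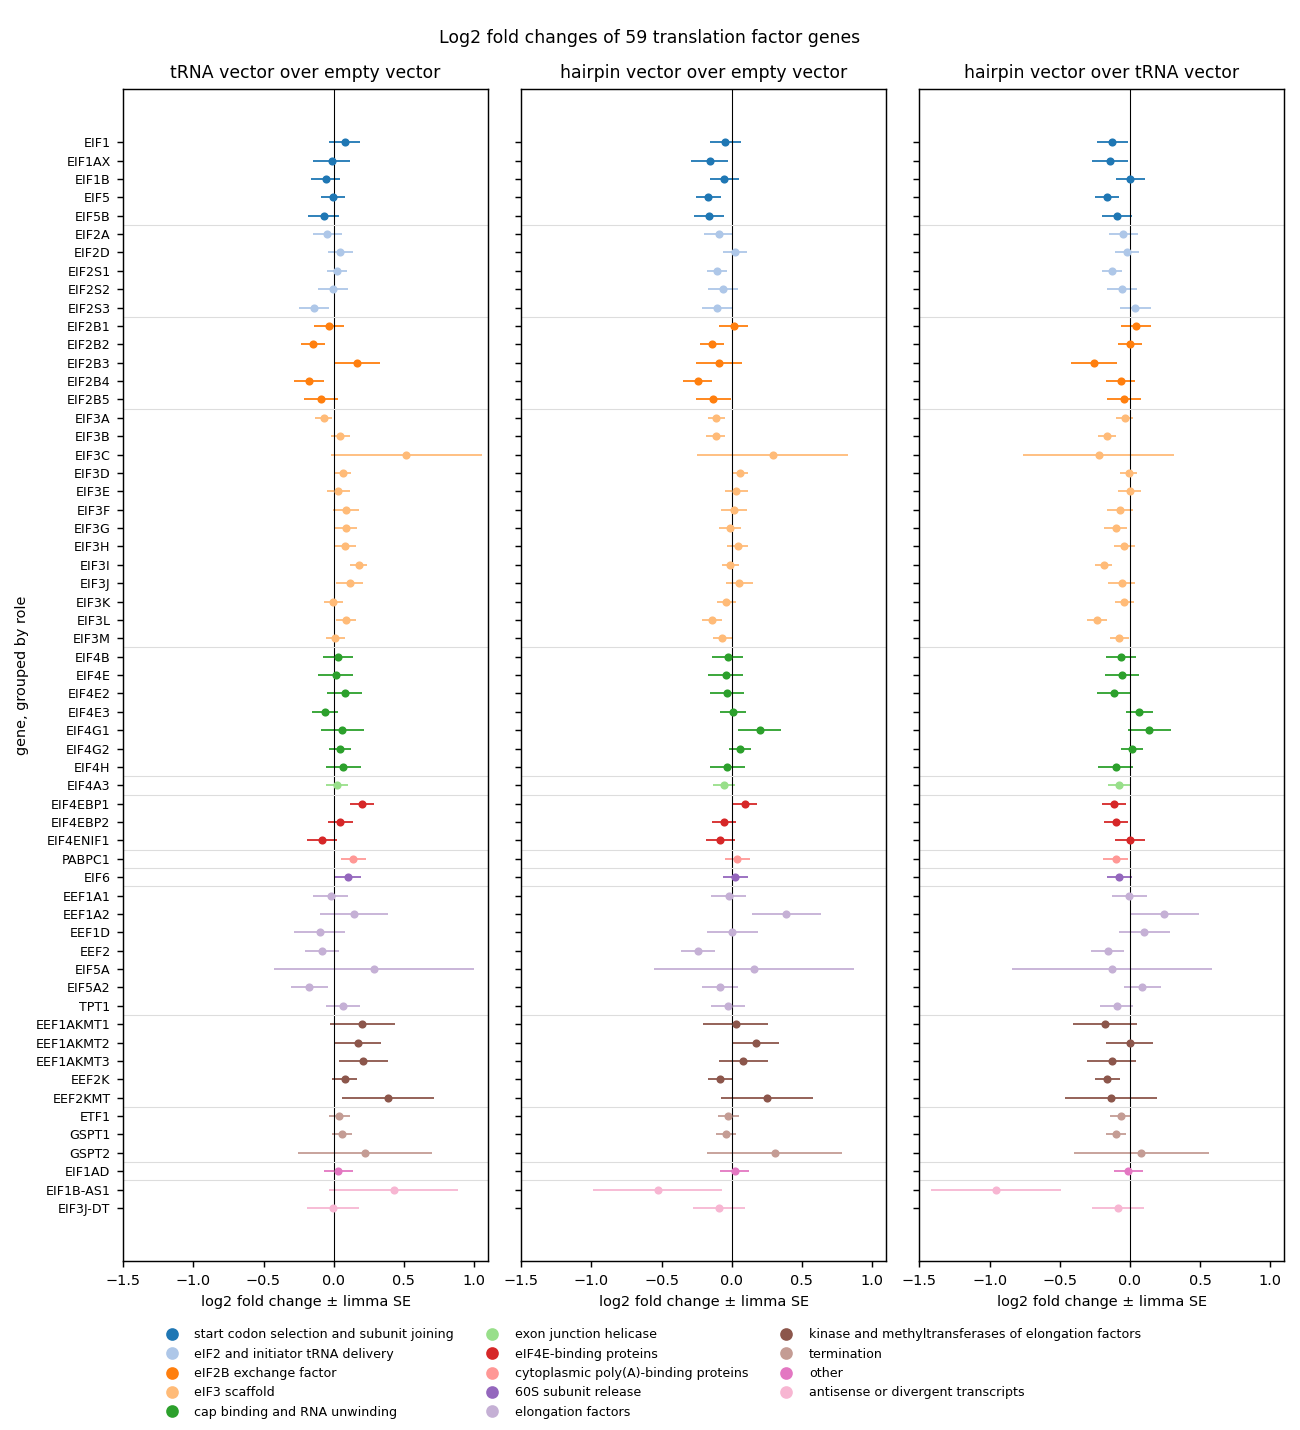
Log2 difference in signal (horizontal axis) for each of the 59 tested translation factor genes (rows, ordered by role) in the 3 comparisons, with points for the estimates and bars for 1 standard error from limma. Most points lie within 0.25 of 0, and no gene had an adjusted p under 0.05. The eIF3 rows lie at or left of 0 in the panel of the hairpin vector against the tRNA vector, where 6 of the 13 moved to the right after quantile normalization.

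The eIF3 complex is the largest initiation factor, a scaffold of many subunits on the small ribosomal subunit, and 13 of its genes were tested. With the tRNA vector against the empty vector 11 of the 13 had a higher mean, and 8 did so after quantile normalization. With the hairpin vector against the tRNA vector 0 of the 13 had a higher mean, but 6 did so after quantile normalization. The count was 3 with the mean of a gene's probe sets or without hairpin vector replicate 1. It was 2 without tRNA vector replicate 2 or without the 3 arrays numbered 2. It was 1 without any one of tRNA vector replicate 4 and hairpin vector replicates 3 and 4. With the hairpin vector against the empty vector 6 of the 13 were higher, and 3 to 8 under the other settings. No eIF3 gene passed the threshold in any of them.

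EIF3L, a subunit that budding yeast lacks, had signals of 17690, 20590, 20680 and 20230 in hairpin vector cells, 22330, 24870, 23140 and 22650 in tRNA vector cells and 23330, 22330, 21190 and 20500 in empty vector cells. All 4 hairpin arrays lay below all 4 tRNA arrays, and the empty arrays overlapped both groups. The log2 difference was -0.23 ± 0.07 (SE) for hairpin against tRNA vector, with an adjusted p of 0.9997 by limma, and -0.14 ± 0.07 for hairpin against empty vector. It was 0.09 ± 0.07 for tRNA against empty vector. Hairpin vector replicate 1 stood below the other 3 hairpin arrays, and without any single array the hairpin to tRNA difference kept within -0.256 and -0.18. After quantile normalization it was -0.135.

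EIF3I, a WD-repeat subunit whose start is printed above, had signals of 10960, 11000, 11520 and 10760 in hairpin vector cells, 12390, 12510, 13190 and 12290 in tRNA vector cells and 11920, 10570, 10990 and 11070 in empty vector cells. The tRNA arrays lay above all arrays of both other groups, and the hairpin and empty arrays overlapped. The log2 difference was 0.18 ± 0.06 for tRNA against empty vector and -0.19 ± 0.06 for hairpin against tRNA vector, with adjusted p of 1 and 0.9997 by limma. Under the other settings these differences ran from 0.135 to 0.219 and from -0.208 to -0.132, so EIF3I kept its sign throughout.

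EIF3B, a core subunit that holds EIF3I and EIF3G, had signals of 6276, 6535, 6252 and 6506 in hairpin vector cells, 6701, 7433, 7617 and 6903 in tRNA vector cells and 6966, 7168, 7069 and 6498 in empty vector cells. The hairpin arrays lay below all tRNA arrays and overlapped the low end of the empty arrays. The log2 difference was -0.16 ± 0.07 for hairpin against tRNA vector. EIF3B has 5 tested probe sets. The others gave -0.23 ± 0.08, -0.19 ± 0.09, -0.05 ± 0.13 and 0.49 ± 0.38 for that comparison. The value of 0.49 came from the dimmest of the 5, with signals of 133.4 to 495.8 over all arrays. With that probe set included, the mean over the 5 was -0.0291.

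EIF3A, the largest subunit of the complex, had signals of 10420, 10660, 10560 and 10080 in hairpin vector cells, 10260, 10880, 10540 and 11160 in tRNA vector cells and 10940, 11470, 11460 and 11140 in empty vector cells. All hairpin arrays lay below all empty arrays, and the tRNA arrays reached into both. The log2 difference was -0.11 ± 0.06 for hairpin against empty vector, the 3 tested probe sets gave -0.13 to -0.11, and every setting kept it between -0.124 and -0.0936. For tRNA against empty vector it was -0.07 ± 0.06, which made EIF3A 1 of the 2 eIF3 genes with a lower mean there, the other being EIF3K, close to 0.

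The remaining subunits overlapped between all groups. EIF3E had log2 differences of 0.03 ± 0.08 for both the hairpin and the tRNA vector against the empty vector. EIF3D, which can bind caps itself, had 0.06 ± 0.06 and 0.07 ± 0.06 in the same comparisons, and EIF3J, a loosely bound subunit, had 0.05 ± 0.10 and 0.11 ± 0.10. EIF3F, EIF3G, EIF3H and EIF3M had log2 differences of 0.01, -0.01, 0.04 and -0.07 for hairpin against empty vector and of 0.09, 0.09, 0.08 and 0.01 for tRNA against empty vector. EIF3C rested on a dim probe set, with a signal of 24.21 to 83.82 with the hairpin vector, 29.38 to 117.1 with the tRNA vector and 36.08 to 65.04 with the empty vector.

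**Figure D2:**
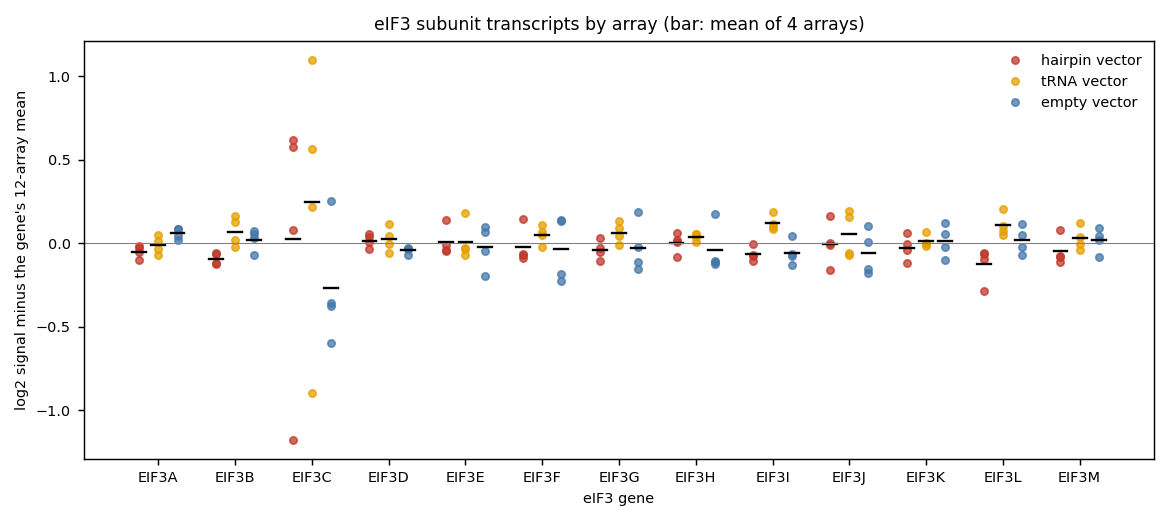
Log2 signal of each tested eIF3 gene (horizontal axis) minus its mean over the 12 arrays (vertical axis), with 1 point per array, colours for hairpin, tRNA and empty vector and a bar at each mean of 4 arrays. The tRNA points of EIF3I lie above both other groups, the hairpin points of EIF3L and EIF3B lie below the tRNA points, and EIF3C scatters most.

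On single arrays the eIF3 genes together deviated from their mean by -0.105, -0.0285, 0.0258 and -0.0199 with the hairpin vector and by -0.0409, 0.1, 0.0942 and 0.1 with the tRNA vector. With the empty vector they deviated by 0.0528, -0.0317, -0.0748 and -0.0728, all as log2 means over 13 genes. Over all 13 genes weighted alike, the tRNA arrays numbered 2, 3 and 4 lay above every other array. The tRNA array numbered 1 lay among the hairpin and empty arrays. The dim EIF3C probe set enters these means with full weight. It was highest on tRNA vector replicate 4, at 117.1, and lowest on hairpin vector replicate 1, at 24.21. The order of the arrays without EIF3C was not tested. Ribosomal proteins, which are not members, also stood high on tRNA vector replicate 2, at 0.282, and low on hairpin vector replicate 1, at -0.23. Hairpin vector replicate 2 was at 0.167 and tRNA vector replicate 1 at -0.102, while empty vector replicates 1 and 2 were at 0.0558 and 0.0218. With the tRNA vector against the empty vector 52 of 58 ribosomal protein genes had a higher mean, and 32 did so after quantile normalization and 33 without tRNA vector replicate 2. With the hairpin vector against the tRNA vector 51 of 58 had a lower mean, and 28 did so after quantile normalization. With the hairpin vector against the empty vector 43 of 58 had a lower mean, and 12 did so without hairpin vector replicate 1. What the ribosomal protein level on single arrays contributes to the eIF3 counts was not tested beyond leaving each array out.

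eIF2B, the exchange factor whose slowing cuts initiation in stressed cells, has 5 subunits, all tested. With both the hairpin and the tRNA vector against the empty vector 4 of the 5 had a lower mean, with medians of -0.13 and -0.09 on the log2 scale. The count of higher subunits for the tRNA vector went to 3 without empty vector replicate 1 and to 2 without tRNA vector replicate 2, without the 3 arrays numbered 2 or with the mean of a gene's probe sets. For the hairpin vector it was 0 to 2 across settings. None passed the threshold.

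EIF2B4, the delta subunit, had signals of 2397, 1826, 1709 and 1863 in hairpin vector cells, 2127, 1925, 2008 and 2034 in tRNA vector cells and 2574, 2267, 2186 and 2144 in empty vector cells. All tRNA arrays lay below all empty arrays, and of the hairpin arrays only replicate 1 reached the empty range. In log2 units the difference was -0.24 ± 0.11 for hairpin against empty vector, with an adjusted p of 0.9999 by limma, and -0.18 ± 0.11 for tRNA against empty vector. The second probe set of EIF2B4 gave -0.06 ± 0.11 and 0.00 ± 0.11 in the same comparisons. So the size of the difference rested on 1 of its 2 probe sets.

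EIF2B2, the beta subunit, had signals of 5500, 4957, 5294 and 4833 in hairpin vector cells, 5652, 4856, 5329 and 4736 in tRNA vector cells and 6424, 5710, 5449 and 5184 in empty vector cells. In every replicate number the empty array was the highest of the 3, while the groups overlapped. This was a log2 difference of -0.14 ± 0.09 for hairpin against empty vector and -0.15 ± 0.09 for tRNA against empty vector. EIF2B5, the catalytic epsilon subunit, had differences of -0.13 ± 0.12 and -0.09 ± 0.12 and overlapped between groups. EIF2B3, the gamma subunit, was the one with a higher mean with the tRNA vector, at 0.17 ± 0.16.

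eIF2 itself showed less. EIF2S1, the alpha subunit that stress kinases phosphorylate, had signals of 6393, 5867, 6053 and 5967 in hairpin vector cells, 6524, 7026, 6174 and 6835 in tRNA vector cells and 7050, 6659, 5990 and 6450 in empty vector cells. The hairpin arrays were low but overlapped both other groups. The log2 differences were -0.11 ± 0.07 against the empty vector and -0.13 ± 0.07 against the tRNA vector. The other EIF2S1 probe sets gave 0.03 and -0.01 against the empty vector and -0.02 and -0.10 against the tRNA vector. EIF2S2, the beta subunit, had -0.06 ± 0.11 for hairpin against empty vector and -0.01 ± 0.11 for tRNA against empty vector. EIF2S3, the gamma subunit that holds GTP, was among the 4 lowest factors for tRNA against empty vector, at -0.14 ± 0.11. Its signals of 5300, 4747, 6180 and 5738 in tRNA vector cells lay below the same-numbered empty arrays, at 6155, 5114, 6582 and 6373, and the groups overlapped.

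Among the cap-binding and scanning factors the largest difference was in EIF4G1, the scaffold that joins eIF4E, eIF4A and eIF3. Its signals were 3081, 4704, 3454 and 3648 in hairpin vector cells, 2666, 4383, 3064 and 3477 in tRNA vector cells and 3192, 2987, 3765 and 2920 in empty vector cells. The array numbered 2 was the highest in both insert groups and not in the empty group. On the log2 scale this came to 0.20 ± 0.15 for hairpin against empty vector and 0.14 ± 0.15 for hairpin against tRNA vector, and all groups overlapped. EIF4G2, a relative that lacks the eIF4E site, had 0.06 ± 0.08 and 0.01 ± 0.08 in these comparisons.

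EIF4E, the cap-binding protein, had signals of 2847, 3157, 3574 and 3548 in hairpin vector cells, 3408, 3053, 3685 and 3482 in tRNA vector cells and 2747, 3050, 3742 and 4101 in empty vector cells. Its log2 differences were -0.04 ± 0.12 for hairpin against empty vector and 0.01 ± 0.12 for tRNA against empty vector. The groups overlapped widely. EIF4E3, a cap-binding relative, was among the 4 highest factors for hairpin against tRNA vector at 0.07 ± 0.09. This sign turned in 1 of the 23 other settings. EIF4B, EIF4E2 and EIF4H overlapped in every comparison, with differences between -0.11 and 0.08.

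EIF4EBP1, the repressor of eIF4E that mTOR switches off, had signals of 5978, 4694, 4886 and 4948 in hairpin vector cells, 5359, 5338, 5606 and 5743 in tRNA vector cells and 5232, 4407, 4888 and 4667 in empty vector cells. All tRNA arrays lay above all empty arrays, and hairpin vector replicate 1 lay above every array of the other two groups. The groups differed by 0.20 ± 0.09 for tRNA against empty vector, with an adjusted p of 1 by limma, and every setting kept it between 0.162 and 0.258. For hairpin against empty vector it was 0.09 ± 0.09. Its paralogue EIF4EBP2 had -0.05 ± 0.09 for the hairpin and 0.05 ± 0.09 for the tRNA vector against the empty vector. Its 3 other tested probe sets gave 0.15 to 0.27 for the hairpin and 0.06 to 0.22 for the tRNA vector. The sign for the hairpin vector therefore depended on the probe set.

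PABPC1, the poly(A)-binding protein, had signals of 19610, 25990, 23460 and 21900 in hairpin vector cells, 22610, 27040, 24430 and 23210 in tRNA vector cells and 21720, 23580, 22650 and 20220 in empty vector cells. In each replicate number the tRNA array lay above the empty array, while the groups overlapped. The fitted log2 difference was 0.14 ± 0.09 for tRNA against empty vector and 0.04 ± 0.09 for hairpin against empty vector.

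The factors of start codon choice and subunit joining had lower means with the hairpin vector than with the empty vector in 5 of 5 genes, with a median of -0.16, and in 4 of the 5 with the mean of a gene's probe sets or without empty vector replicate 1, hairpin vector replicate 1 or hairpin vector replicate 4. EIF5, which makes eIF2 hydrolyse its GTP at the start codon, had signals of 8080, 10220, 9698 and 9233 in hairpin vector cells, 9629, 11180, 10920 and 9906 in tRNA vector cells and 11040, 9808, 11160 and 9712 in empty vector cells. The groups overlapped, with a log2 difference of -0.17 ± 0.09 for hairpin against empty vector and -0.16 ± 0.09 for hairpin against tRNA vector, and 0.00 ± 0.09 for tRNA against empty vector. The 5 probe sets of EIF5 all lay below 0 for hairpin against empty vector, between -0.19 and -0.07. EIF1AX, which fills the ribosome's acceptor site, had -0.16 ± 0.13 and EIF5B, the joining GTPase, -0.16 ± 0.11 for hairpin against empty vector. The other EIF1AX probe sets gave -0.03, 0.08 and 0.02. Of the 5 other EIF5B probe sets 3 were lower, and they ran from -1.22 to 0.17. EIF1, the guardian of start codon fidelity, and its paralogue EIF1B had -0.05 ± 0.11 and -0.05 ± 0.10. Of the 6 other EIF1 probe sets only 1 was lower. The count of 5 therefore depends on taking the brightest probe set.

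EEF2, the translocase, had signals of 20060, 23200, 24640 and 25370 in hairpin vector cells, 22340, 32480, 23070 and 26960 in tRNA vector cells and 32060, 27130, 26760 and 24440 in empty vector cells. The hairpin arrays numbered 1 and 2 lay below all empty arrays and the other two reached into them. In log2 units the difference was -0.24 ± 0.12 for hairpin against empty vector and -0.08 ± 0.12 for tRNA against empty vector. The other probe set of EEF2 gave -0.01 ± 0.10 for hairpin against empty vector, so the 2 probe sets did not show one size.

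EEF1A1, which delivers aminoacyl-tRNA, had signals of 33180, 46680, 39210 and 36580 in hairpin vector cells, 33860, 49420, 39350 and 34030 in tRNA vector cells and 39480, 40690, 42160 and 34980 in empty vector cells. The groups overlapped over most of their range, and the difference was -0.02 ± 0.12 on the log2 scale for both inserts against the empty vector. TPT1, a TOP mRNA product that binds eEF1A, had signals of 30850, 45920, 36630 and 35380 in hairpin vector cells, 34990, 49040, 36870 and 37800 in tRNA vector cells and 39820, 40170, 35750 and 34680 in empty vector cells. Its differences were -0.03 ± 0.12 for the hairpin and 0.07 ± 0.12 for the tRNA vector against the empty vector. The array numbered 2 was the highest of its group in both genes for the hairpin and tRNA vectors. Both genes are read by probe sets marked as sharing probes with other transcripts, so related loci and pseudogenes can add to them.

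EEF1A2, the paralogue of EEF1A1 typical of neurons and muscle, gave the highest t of the family with the hairpin vector against either other group. Its signals were 2215, 1962, 1421 and 1744 in hairpin vector cells, 1930, 1282, 1216 and 1811 in tRNA vector cells and 2035, 832, 1748 and 1236 in empty vector cells. The groups overlapped over most of their range, with log2 differences of 0.39 ± 0.24 for hairpin against empty vector and 0.25 ± 0.24 for hairpin against tRNA vector. EIF5A2, the paralogue of EIF5A, had -0.17 ± 0.13 for tRNA against empty vector and 0.09 ± 0.13 for hairpin against tRNA vector. EIF5A itself had the widest standard error of the family, at 0.71, around differences of 0.16 for hairpin against empty vector, -0.13 for hairpin against tRNA vector and 0.29 for tRNA against empty vector. With the replicate block its standard error was 0.21, and the adjusted p was 0.9589 for hairpin against empty vector and 0.9165 for hairpin against tRNA vector by limma.

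Of the enzymes that modify elongation factors, EEF2K, the kinase that halts eEF2, had signals of 1410, 1443, 1266 and 1500 in hairpin vector cells, 1517, 1674, 1530 and 1557 in tRNA vector cells and 1441, 1563, 1583 and 1359 in empty vector cells. The hairpin arrays lay below all tRNA arrays and overlapped the empty arrays. On the log2 scale this came to -0.16 ± 0.09 for hairpin against tRNA vector. All 5 genes of this group had higher means with the tRNA vector than with the empty vector, with a median of 0.21, and this count was 5 in every setting tried. All 5 also had lower means with the hairpin vector than with the tRNA vector, a count that went to 3 without hairpin vector replicate 4 or tRNA vector replicate 1. Each of the 5 differences was smaller than 2 standard errors in both comparisons. EEF1AKMT2, a methyltransferase for eEF1A, was among the 4 highest for hairpin against empty vector at 0.17 ± 0.17.

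Factors outside these steps overlapped too. EIF6, which keeps the ribosomal subunits apart, had 0.03 ± 0.09 for the hairpin and 0.10 ± 0.09 for the tRNA vector against the empty vector. EIF4A3, the helicase of the exon junction complex, had -0.06 ± 0.08 and 0.02 ± 0.08, and EEF1D, of the eEF1B complex, had 0.00 ± 0.18 and -0.10 ± 0.18. EIF2A, EIF2D, EIF4ENIF1, EIF1AD and EIF3J-DT lay between -0.09 and 0.05 in the same comparisons.

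The termination factors did not stand out. ETF1, which reads the stop codon, had log2 differences of -0.03 ± 0.07 for the hairpin and 0.04 ± 0.07 for the tRNA vector against the empty vector. GSPT1, its GTPase partner, had -0.04 ± 0.07 and 0.06 ± 0.07 in the same comparisons. Its paralogue GSPT2 was dim, with signals of 45.52 to 170.9 with the hairpin vector, 54.16 to 119.4 with the tRNA vector and 34.76 to 102.9 with the empty vector. EIF1B-AS1, the antisense transcript, was also dim and stood among the 4 lowest for hairpin against tRNA vector at -0.95 ± 0.46, with 3 probe sets that ran from -0.95 to 0.80.

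**Figure D3:**
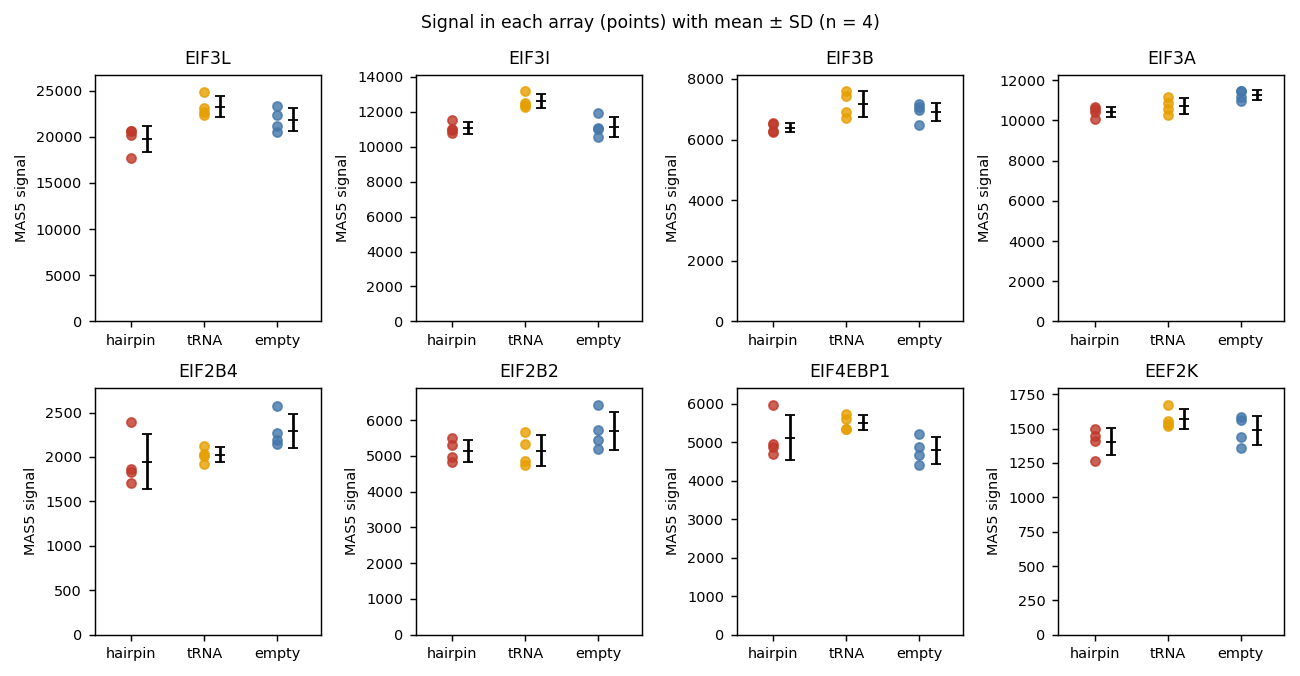
Signal (vertical axis, linear from 0) of EIF3L, EIF3I, EIF3B, EIF3A, EIF2B4, EIF2B2, EIF4EBP1 and EEF2K, with 1 point per array for the hairpin, tRNA and empty vector (horizontal axis) and the mean ± SD beside them (n = 4). The tRNA points of EIF3I lie above both other groups, and the hairpin points of EIF3L, EIF3B and EEF2K lie below the tRNA points.

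More of the spread among the factors followed the replicate number than the vector. By the limma F test of the number, 15 of 59 factors (25.4%) had an adjusted p under 0.05, against 14.0% of all genes. Over probe sets it was 40 of 146, against 15.8% of all. Without the intensity trend in the variance model 1 factor passed, a share below that of all probe sets, as given at the end. Without hairpin vector replicate 1 it was 6, without tRNA vector replicate 1 it was 7, and without tRNA vector replicate 2 it was 9. Without the 3 arrays numbered 1 it was 7. Of all 32768 probe sets 5190 passed in the main fit, 1096 without the 3 arrays numbered 1 and 3221 to 5519 without single arrays. The number accounted for a median of 48.0% of a factor's variation over the arrays and the vector for 13.4%, against 39.2% and 12.9% over all genes. It exceeded the vector's share in 79.7% of the factors and in 76.5% of all genes, with 3 degrees of freedom for the number and 2 for the vector of 11.

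EIF5A, the only factor to pass without the trend, had signals of 1016, 183.5, 316 and 328.4 in hairpin vector cells, 1332, 187.9, 333.1 and 330.6 in tRNA vector cells and 1166, 109.6, 473.8 and 206.2 in empty vector cells. In this probe set, its brightest, the arrays numbered 1 stood far above all others and those numbered 2 below them in every group. The number took up 93.2% of its variation, with an adjusted p of 1.32e-05 by limma. Another EIF5A probe set averaged 434, 215.8, 304.4 and 333.1 on the arrays numbered 1 to 4. The last averaged 246.2, 95.96, 212.2 and 245. Their adjusted p were 0.00962 and 0.122 by limma. Both were lowest on the arrays numbered 2, but those numbered 1 did not stand as far apart. EIF4E2, a cap-binding relative of eIF4E, averaged 3630 on the arrays numbered 1 and 2955, 2843 and 2751 on those numbered 2, 3 and 4.

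Several of the brightest factors shared another pattern. EEF1A1 averaged 45450 on the arrays numbered 2, against 35400, 40220 and 35180 on those numbered 1, 3 and 4, with an adjusted p of 0.0136 by limma. TPT1 averaged 44890 there and 35030, 36410 and 35930 on the others. PABPC1 and EIF1 were likewise highest on the arrays numbered 2, at 25490 and 41410. EEF2 and EIF3L, also among the brightest, did not pass, with adjusted p of 0.7177 and 0.6439 by limma. Within the empty vector group EEF1A1 was highest on the array numbered 3, at 42160 against 40690 on that numbered 2. EIF2S3 and EIF2B1 were lowest on the arrays numbered 2, at 4918 and 2913. After quantile normalization 11 factors passed the number test, and EEF1A1, TPT1, PABPC1, EIF1 and EIF2B1 were not among them, while EIF2S3, EIF5A and EIF4E2 were. Factors with a pyrimidine start were higher than their own mean on the arrays numbered 2 in 6 of 11 cases, and those without one in 14 of 33. In the number test 5 of these 11 and 8 of these 33 passed, against 14.0% of all genes. EEF1A1 and TPT1 are among the 5 and, as given above, did not pass after quantile normalization. The Bacillus control level moved with the number too, as given above, and its part in these patterns was not tested.

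**Figure D4:**
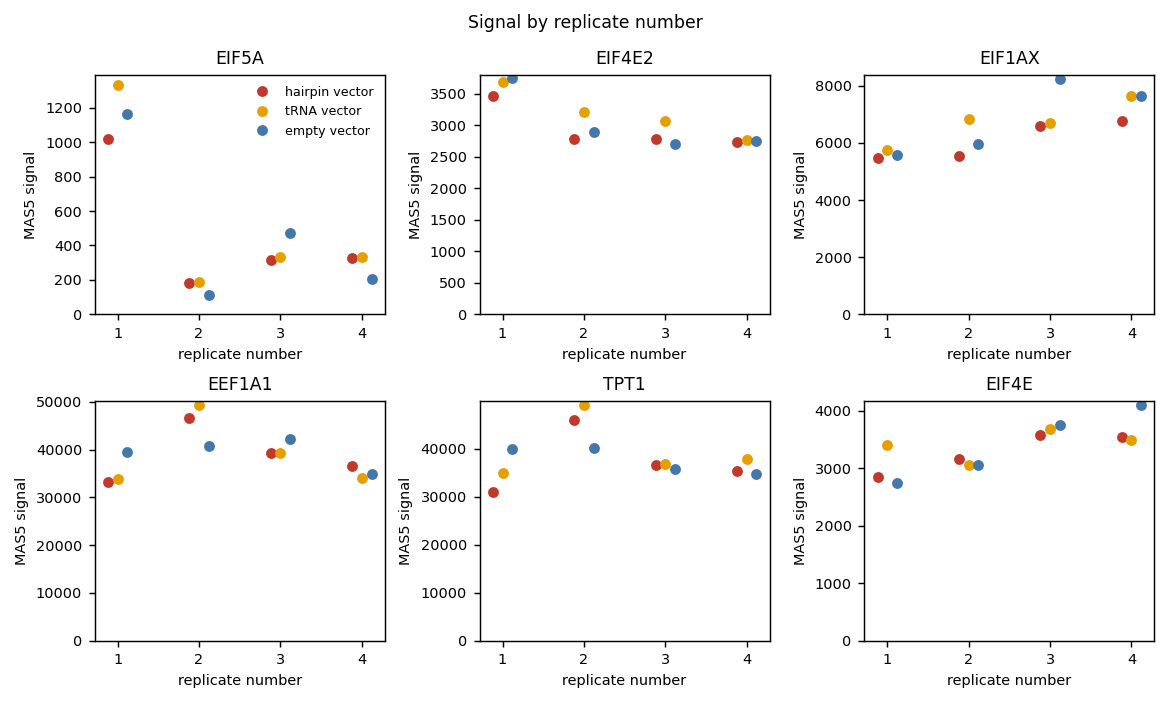
Signal (vertical axis, linear from 0) of EIF5A, EIF4E2, EIF1AX, EEF1A1, TPT1 and EIF4E, by replicate number on the horizontal axis with 1 point per vector group. The EIF5A points numbered 1, at 1016, 1332 and 1166 for hairpin, tRNA and empty vector, stand above all others.

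**Figure D5:**
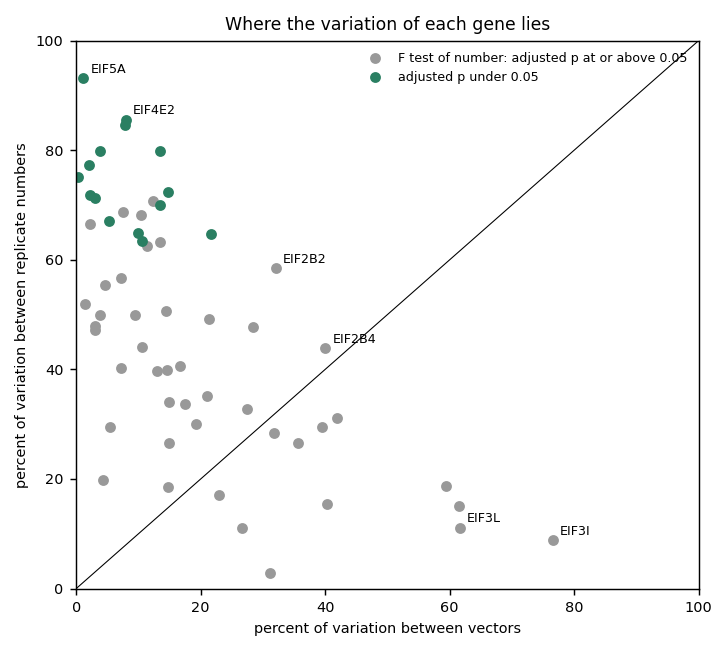
Share of the variation over the 12 arrays, in percent, taken by the replicate number (vertical axis) against that taken by the vector (horizontal axis), with 1 point for each of the 59 factors. For 47 of the 59 the point lies above the diagonal, where the number takes more than the vector.

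Probe sets of one gene did not always move together. Of 36 factors with several tested probe sets, all agreed in sign for 14 in the hairpin against empty comparison, 12 in the tRNA against empty comparison and 11 in the hairpin against tRNA comparison. The median gap between a gene's highest and lowest difference was 0.20 on the log2 scale in the tRNA against empty comparison. The widest gaps were those of EIF5B, from -1.35 to 0.29 for tRNA against empty vector and from -1.22 to 0.17 for hairpin against empty vector. EIF1B-AS1 with -1.05 to 0.43 and EIF3H with -0.72 to 0.08 followed in the first of these comparisons, and EIF3M with -0.67 to 0.41 and EIF5A with -0.58 to 0.20 in the second. For hairpin against tRNA vector the widest were EIF1B-AS1, EIF4E with -0.06 to 0.87 and EIF3B. Several of these ends came from dim probe sets with wide standard errors. The low end of EIF5B had a standard error of 1.07, at mean signals by number of 24.61 to 171.8. The low ends of EIF3H and EIF3M had standard errors of 0.37 and 0.43, and the high end of EIF4E had 0.34. What noise contributes to these gaps was not tested.

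The replicate number split probe sets of one gene as well. Another EIF4B probe set gave 2394, 1967, 1031 and 831.7 in hairpin vector cells, 2678, 2736, 874.9 and 724.8 in tRNA vector cells and 2320, 2553, 1014 and 852.5 in empty vector cells. Its arrays numbered 1 and 2 lay above all those numbered 3 and 4, by 1.46 on the log2 scale, with an adjusted p of 1.22e-06 by limma. The brightest EIF4B probe set ran the other way, at -0.22. EIF4E was split too, with means by number of 2996, 2016, 1828 and 2296 from one probe set and 2987, 3086, 3666 and 3700 from its brightest.

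Regulators of translation outside the family showed no shared direction. Of 43 tested genes 22 were higher with the hairpin vector and 24 with the tRNA vector than with the empty vector, with medians of 0.01 in both. CPEB4, a binding protein of cytoplasmic polyadenylation, had the smallest p among them, at a log2 difference of -0.56 ± 0.15 for tRNA against empty vector with no overlap and an adjusted p of 1 by limma. PABPC3 followed there at 0.14 ± 0.09, the same rounded values as for PABPC1. Whether its probe set also reads PABPC1 was not tested. For hairpin against empty vector they were PABPC1L at 0.30 ± 0.14 and PPP1R15A, which helps dephosphorylate eIF2, at 0.23 ± 0.11. For hairpin against tRNA vector they were CPEB3 at 0.55 ± 0.22 and DPH7, of the pathway that modifies eEF2, at -0.21 ± 0.09. Of 9 mitochondrial translation factors 5 were higher with each insert vector than with the empty vector. Those with the smallest p for hairpin against tRNA vector were TSFM, an elongation factor of mitochondria, at -0.27 ± 0.09, and MRRF, which recycles mitochondrial ribosomes, at 0.26 ± 0.12. For hairpin against empty vector they were MTIF3, an initiation factor, at 0.16 ± 0.10 and MTRFR at -0.21 ± 0.16. For tRNA against empty vector they were MRRF at -0.24 ± 0.12 and TSFM at 0.17 ± 0.09. The ribosomal proteins with the smallest p were RPL36 and RPL23A for hairpin against tRNA vector, at -0.21 ± 0.07 and -0.22 ± 0.09, RPS9 and RPS21 for tRNA against empty vector, at 0.17 ± 0.06 and 0.21 ± 0.10, and RPL39L and RPL36 for hairpin against empty vector, at 0.23 ± 0.15 and -0.09 ± 0.07.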

How the data were processed

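The 12 arrays were 4 per vector group. Per the labels and the submitters' processing notes, the authors deposited MAS5 signals, which are intensity values on a linear scale; the MAS5 version is not given in the sources used here. Gene symbols came from the platform annotation, where 41097 of 54675 probe sets have 1 symbol, 1801 several and 11777 none. Log2 signals were fitted with 3 group means by limma 3.58.1 in R 4.3.3 with an intensity trend, after leaving out 62 control probe sets and the 21845 dimmest, below the 40th percentile of the mean log2 signal, which is 43.3 as a geometric mean. P-values were adjusted by the Benjamini-Hochberg method over the 32768 that remained, with a threshold of 0.05. Same-numbered arrays deviated together, with correlations after removing group means of 0.113 to 0.356 between hairpin and tRNA vector and 0.108 to 0.333 between hairpin and empty vector, all 4 pairs over 0.1 in each. So the numbers were taken to pair the arrays in these 2 comparisons, from the correlations and not from a stated batch. Between tRNA and empty vector the lowest was 0.0987. A second fit held group and replicate number and tested the number by an F test. The number of arrays limits the precision.

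A gene was represented by its brightest tested probe set with 1 symbol. Named in each comparison were a set of central factors and their paralogues, the 4 highest and 4 lowest by moderated t, any factor past the threshold or without overlap between groups, and the 3 with the widest gap between probe sets. Of each list outside the family the 2 smallest p were named. The members, the lists and the block by control RNA level were chosen with earlier results of these data known. The scripts were tested on simulated data. Alternatives were quantile normalization, an offset of 16, no filter or the 60th percentile, the mean of a gene's probe sets, no intensity trend, only the arrays compared, 2 kinds of block and leaving out each array. Leaving out the 3 arrays numbered 1 or those numbered 2 was added after seeing the data. Promoter sequences were from RefSeq.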

Additional observations from a re-analysis of the deposited data

Results flagged for a closer look

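In each group of 4 arrays the highest and lowest signal of every factor was set against the other 3 by Dixon's ratio, at its critical value for 95%. Of 177 groups examined, 7 had an array that stood apart, where chance alone gives about 1 in 20. EIF1B-AS1 had 138.3 on empty vector replicate 2, above the other empty arrays at 69.26 to 73.94. EIF4E2 had 3461 on hairpin vector replicate 1, above the others at 2735 to 2777. EIF3F had 15520 on the same array, above 13200 to 13400. EIF3L had 17690 on that array too, below the others at 20230 to 20680. EIF4G2 had 19390 on tRNA vector replicate 2, above 16920 to 17200. EIF3E had 19440 on that array, above 16360 to 16820. EIF3H had 10900 on empty vector replicate 1, above 8836 to 8964. Hairpin vector replicate 1 holds 3 of the 7 and tRNA vector replicate 2 holds 2.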

How the results depend on the processing

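No factor passed the threshold between vectors under any of the settings tried, and the smallest adjusted p of a factor in any of them was 0.8082 for hairpin against empty vector, 0.4505 for tRNA against empty vector and 0.2803 for hairpin against tRNA vector, by limma. Of the 59 factors, 24 kept the sign of their difference in all settings for hairpin against empty vector, 24 for tRNA against empty vector and 23 for hairpin against tRNA vector. Over all probe sets, where the count was 0 in each comparison, a block by control RNA level gave 3 for hairpin against empty vector, 4 for tRNA against empty vector and 8 for hairpin against tRNA vector. Arrays with different numbers had correlations of -0.231 to 0.148, and an array correlated best with its own number in 19 of 24 cases. With a replicate block the count was 6 for hairpin against tRNA vector and 0 in the other comparisons, and it changed no other call at the threshold. For tRNA against empty vector, where the numbers did not meet the rule for pairs, the block gave 3 factors lower (4.78% of all genes) and 3 higher (4.34%) at an unadjusted p under 0.05. Without the 3 arrays numbered 1 it was 1 for hairpin against tRNA vector. The counts remained 0 when any single array was left out. The members' median for hairpin against tRNA vector was -0.0715, and -0.0304 with quantile normalization and -0.0316 with the mean of a gene's probe sets. The cause of these shifts was not tested. The number test called 5190 probe sets, and 1465 with 1 row per gene, which tests fewer rows, 1847 without the intensity trend and 1096 without the arrays numbered 1. Leaving out single arrays gave 3221 to 5519. For the factors it called 15, and 1 without the trend, 7 without the arrays numbered 1 and 6 to 16 without single arrays. Without the trend, 1 of 59 factors is a smaller share than 1847 of the 32768 probe sets. The number test could not be run with either block or on only the arrays compared. With 4 arrays a group and a median standard error of 0.11, small differences in the brightest factors remain undetected, and signals near the filter are noisier.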
